A study of Mus musculus with 15 samples.

Results

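The Zfand genes encode proteins with AN1-type zinc fingers, small metal-binding folds that are found in many proteins of the ubiquitin system. The 6 members described here, Zfand1, Zfand2a, Zfand2b, Zfand3, Zfand5 and Zfand6, were taken by gene symbol from tables of 20207 genes, and each of the 6 was listed in all 15 samples. The mRNA came from NIH3T3 cells, an established mouse embryonic fibroblast line. In all 15 samples, controls included, the cells stably expressed DD-sfGFP. This fusion joins superfolder GFP to an FKBP-derived destabilizing domain (DD), which stays folded only with its small-molecule ligand Shield-1 (S1) bound. Unfolded DD was created by removing S1, and cells were collected 45 min (3 samples), 135 min (3 samples) or 405 min (4 samples) later, against 5 control samples labelled with no stress at time 0. Per the study's methods, the cells had been sorted for high GFP and purified FKBP(F36V), which binds S1, was added to the medium to withdraw it. The loss of S1 and the presence of that added protein cannot be told apart in these samples. Per the study, cells with GFP alone, from which S1 was withdrawn the same way, showed no significant change in the transcripts measured by RT-qPCR. Those cells are not among these samples. The labels do not say whether replicates came from separate cultures, so p-values measure the spread between these samples, which may be technical.

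Total counts ran from 6652539 in control replicate 3 to 30258404 in replicate 1 of the 45-min samples. All 9 fibroblast markers checked (such as Col1a1 and Vim) had a median of at least 1 RPKM, whereas 0 of 8 markers of epithelial, blood and endothelial cells did. The samples were also split into a pair of library sets, at the largest gap in how strongly a gene's level followed the GC content of its transcript. These sets were inferred from the counts. The labels do not mention them, and what they stand for is not known. Control replicate 2, 1 sample at 45 min (replicate 3) and 3 of the samples at 405 min (replicates 1, 2 and 4) made up library set 2. The other 10 samples, with all those at 135 min among them, formed library set 1. Because 3 of the 4 samples at 405 min but 1 of the 5 controls lay in set 2, results of the members at 405 min are given with and without a term for the set.

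ZFAND2A, also called AIRAP, is known as the arsenite-inducible member, is made under proteotoxic stress and binds the proteasome. ZFAND2B (AIRAPL) is its constitutive, membrane-associated relative, which also binds the ATPase p97. ZFAND1 is known for bringing p97 and the proteasome to stress granules. ZFAND5 (ZNF216) and ZFAND6 (AWP1) carry an A20-type zinc finger that binds ubiquitin in front of the AN1 finger, and ZFAND5 is known to stimulate the proteasome in atrophying muscle. ZFAND3 has the same A20/AN1 architecture and is less well understood.

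Zfand2a mRNA was higher at 135 and 405 min after S1 withdrawal than in control, and Zfand2a was the member called with group alone in the model. In the control samples it stood at 26.9, 45.6, 34.5, 36.0 and 43.0 CPM (counts scaled to the normalized library size). At 45 min the 3 samples gave 56.3, 39.1 and 58.3 CPM, so that 2 of them lay above every control and 1 lay among the controls. At 135 min they gave 167, 149 and 172 CPM, and at 405 min 182, 186, 132 and 174 CPM. Both later groups lay far above all controls and overlapped each other. Across all genes tested, 4.79% lay above every control in each 135-min sample and 6.75% in each 405-min sample.

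The increase amounted to 4.37-fold at 135 min (log2 fold change 2.13, SE 0.19, edgeR adjusted p 2.14e-05) and 4.53-fold at 405 min (2.18, SE 0.18, edgeR adjusted p 7.09e-06). The level at 405 min did not differ detectably from that at 135 min (log2 fold change 0.05, SE 0.20, edgeR adjusted p 0.878). At 45 min the log2 fold change of 0.46 (SE 0.19) did not pass the threshold of 0.05 (edgeR adjusted p 0.698, unadjusted p 0.0259), and neither did any other gene in that comparison (0.0% of genes tested). Zfand2a kept its call at both later times when any 1 of the 15 samples was left out, with log2 fold changes from 2.03 to 2.21 at 135 min and from 2.08 to 2.28 at 405 min. With library set as a covariate it was 1.97 at 405 min (SE 0.15, edgeR adjusted p 1.5e-06), a 3.91-fold increase. Within library set 1, with 1 sample against 4, it was 1.90 (SE 0.23, edgeR adjusted p 0.00581), and within set 2, with 3 against 1, it was 1.98 (SE 0.24, edgeR adjusted p 0.000316). The lone sample in each of these fits is assumed to vary like the replicated groups.

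**Figure D1:**
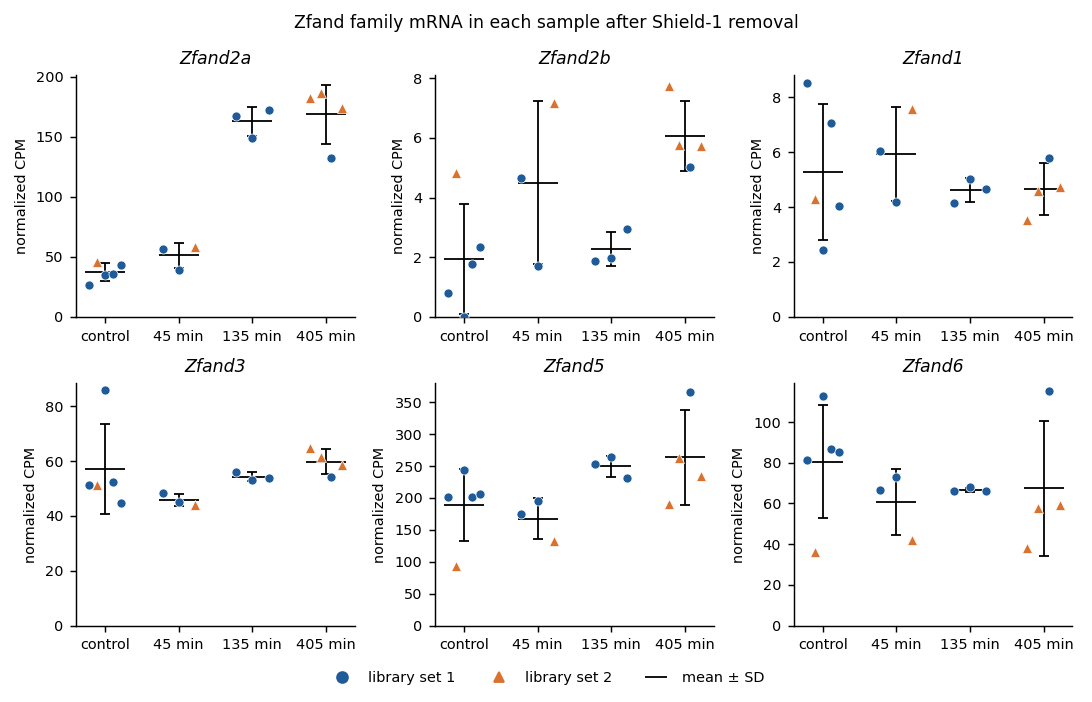
Normalized CPM (y axis, linear from 0) of the 6 Zfand genes in each sample, by group (x axis); circles are samples of library set 1, triangles those of library set 2, and black bars give the group mean ± SD. Zfand2a separates the 135-min and 405-min samples (132 CPM or more) from all controls (45.6 CPM or less), while in Zfand5 and Zfand6 the lowest sample of the control and 45-min groups is the one from library set 2.

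Zfand2a lies on the minus strand of chromosome 5 (139947171 to 139960445, mm9), is protein-coding and overlaps no other annotated gene. The stretch before its transcription start is shown because its mRNA rose under both models, and that of Zfand5 (chromosome 19, 21346768 to 21356779, plus strand) is shown beside it because its call depended on the model. The other members are also protein-coding and overlap no other annotated gene, with Zfand1 on chromosome 3 (10339956 to 10351301, minus strand), Zfand2b on chromosome 1 (75165220 to 75168199, plus strand), Zfand3 on chromosome 17 (30142032 to 30346965, plus strand) and Zfand6 on chromosome 7 (91763564 to 91827861, minus strand). Each line holds the 250 bases upstream of the start, 5′ to 3′ on the strand of the gene, from the RefSeq promoter table (GRCm38.p6) and placed by an exact match in mm9, at chr5:139960446-139960695 for Zfand2a and chr19:21346518-21346767 for Zfand5. Capitals mark matches to the motifs searched on both strands, namely paired units of a heat shock element, TTCNNGAA and GAANNTTC, either of them extended by 1 more such unit at its 3′ end, the cyclic AMP response element TGACGTCA, and the core of the antioxidant response element, TGACNNNGC.
Zfand2a: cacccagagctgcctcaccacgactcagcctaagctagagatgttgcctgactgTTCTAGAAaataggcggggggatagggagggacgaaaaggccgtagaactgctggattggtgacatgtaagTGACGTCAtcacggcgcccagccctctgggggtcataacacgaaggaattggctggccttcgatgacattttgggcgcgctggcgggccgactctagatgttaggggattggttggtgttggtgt
Zfand5: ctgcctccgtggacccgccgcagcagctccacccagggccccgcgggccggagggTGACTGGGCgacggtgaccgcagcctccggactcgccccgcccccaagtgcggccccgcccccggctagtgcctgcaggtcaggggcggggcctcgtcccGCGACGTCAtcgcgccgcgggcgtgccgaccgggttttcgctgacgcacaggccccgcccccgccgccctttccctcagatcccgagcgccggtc
The window of Zfand2a held TTCTAGAA at 196 to 189 bases before the start and TGACGTCA at 125 to 118. TTCNNGAA occurred in 7.17% of 32851 promoter windows of the same length, either pair of heat shock units in 12.84% and TGACGTCA in 1.55%. The extended heat shock motifs, present in 0.466% of windows each, matched no window of a member. The Zfand5 window, with 78.0% G and C, held 2 matches to TGACNNNGC and none to the heat shock pairs. TGACNNNGC occurred in 10.2% of all windows. Among the others, TGACGTCA was also present in a window of Zfand2b and GAANNTTC and TGACNNNGC in windows of Zfand6, and a window of Zfand3 held none. Zfand1 had no entry in the table. These matches describe letters in a window and not occupied sites.

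Zfand5, the most abundant member, passed the threshold at 405 min with library set in the model and not with group alone. Its control values were 201, 93.2, 244, 202 and 206 CPM, where the low value is the set 2 control. At 45 min it gave 175, 196 and 132 CPM, again lowest in the set 2 sample. The 135-min samples, all of set 1, stood at 253, 264 and 232 CPM, and those at 405 min at 191, 263, 366 and 235 CPM, of which the 366 is the set 1 sample. Both sets therefore showed their 405-min samples above their own controls, while the groups overlapped when the sets were pooled. Among all genes tested, 25.8% lay above every control in the single 405-min sample of set 1, and 30.5% lay above the single control in the 3 samples of set 2.

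In the model with group alone, Zfand5 had a log2 fold change of 0.48 at 405 min (SE 0.24, edgeR adjusted p 0.143). With library set as a covariate it was 0.94 (SE 0.15, edgeR adjusted p 0.000622), a 1.92-fold increase that stayed past the threshold when any 1 of the 15 samples was left out (0.72 to 1.03, highest adjusted p 0.011). Within set 1, with 1 sample against 4, the log2 fold change was 0.77 (SE 0.16, edgeR adjusted p 0.0378, with 2.07% of genes called), and within set 2, with 3 against 1, it was 1.29 (SE 0.25, edgeR adjusted p 0.00756, with 3.77% called). The same assumption on the lone sample holds in these fits. At 135 min neither model gave a call, with a log2 fold change of 0.40 (SE 0.26) for group alone and 0.30 (SE 0.14, edgeR adjusted p 0.177) with the set.

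Zfand6 encodes the closest relative of ZFAND5 in this family and is the member with the lowest transcript GC content (39.6%). It stood at 81.3, 36.2, 113, 86.8 and 85.5 CPM in the controls and at 66.7, 73.2 and 42.3 CPM at 45 min. The values at 135 min were nearly equal, at 65.9, 67.9 and 66.0 CPM, whereas those at 405 min spread over 38.0, 57.7, 115 and 59.3 CPM. The lowest control, the lowest 45-min sample and the 3 lower samples at 405 min were those of library set 2, and all groups overlapped.

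No comparison of Zfand6 with control passed the threshold. The sign at 405 min depended on the model, the log2 fold change being -0.25 for group alone (SE 0.32, edgeR adjusted p 0.56) and 0.33 with library set (SE 0.17, edgeR adjusted p 0.229). At 135 min it was -0.27 (SE 0.35) and -0.41 (SE 0.17, edgeR adjusted p 0.127). Within the sets, with 1 sample on 1 side of each comparison, the log2 fold change of Zfand6 at 405 min was 0.33 (SE 0.20) in set 1 and 0.51 (SE 0.27) in set 2, with edgeR adjusted p-values of 0.428 and 0.359. The pooled value thus had the opposite sign to the other 3, and none passed the threshold.

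**Figure D2:**
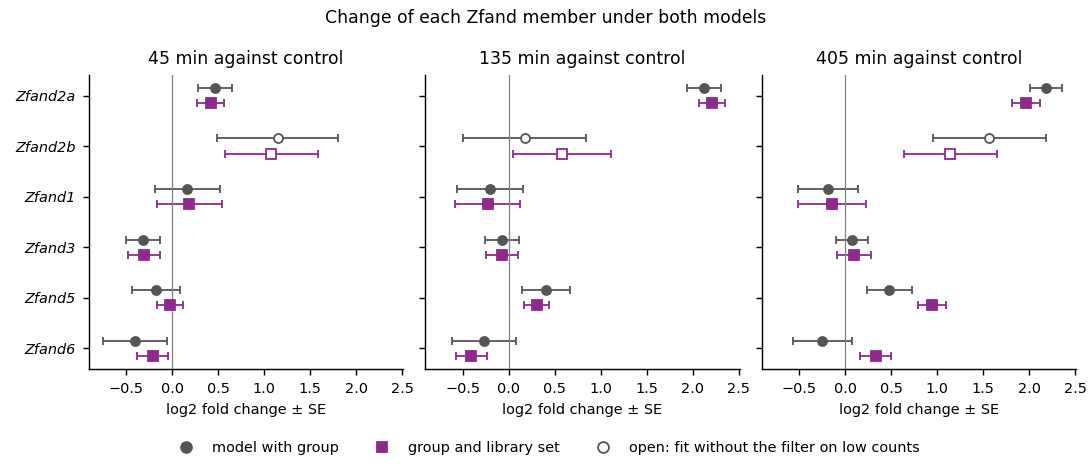
Log2 fold change ± SE (x axis) of each member (y axis) at 45, 135 and 405 min against control, in the model with group (grey circles) and in the model with group and library set (purple squares); open symbols for Zfand2b come from fits without the filter on low counts. Zfand2a sits near 2 at both later times in both models, whereas at 405 min Zfand5 moves from 0.48 to 0.94 and Zfand6 crosses 0 between the models.

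The ratio of Zfand5 to Zfand6 within a library does not depend on how libraries are scaled, and it separated the groups where the single genes did not. In the controls the log2 ratio of counts was 1.30, 1.37, 1.12, 1.22 and 1.27. It was 1.39, 1.42 and 1.64 at 45 min, 1.94, 1.96 and 1.81 at 135 min, and 2.33, 2.19, 1.67 and 1.99 at 405 min. Every sample after S1 withdrawal thus lay above every control, although the margin at 45 min was narrow. The ratio also followed library set: in each group that held both sets, the samples of set 2 had the highest values. The share of all gene pairs whose ratio separates in this way was not determined.

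The mean log2 ratio was 1.25 ± 0.09 (SD, n = 5) in control. It was higher by 0.23 at 45 min and by 0.65 at 135 min, each with the smallest p that a two-sided exact permutation test of 3 against 5 samples allows (0.0179). At 405 min it was higher by 0.79 (exact permutation p 0.00794, the smallest possible for 4 against 5). Adjusted over all 18 ratio tests each of the 3 p-values was 0.0403 by the Benjamini-Hochberg method. Within library set 1 the ratio was 0.68 higher at 135 min (exact permutation p 0.0286, with 3 samples against 4), 0.18 higher at 45 min (exact p 0.133) and 0.44 higher in the single sample at 405 min. Within set 2 it was 0.27 higher at 45 min and 0.80 higher at 405 min, with too few samples to pass a test. The 45-min difference was 0.15 without the set 2 sample of that group (exact permutation p 0.0952). It also lost its call without control replicate 1, 4 or 5 (0.24, 0.22 and 0.23, each exact permutation p 0.0571).

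Ratios of Zfand2a to the other members asked whether the family moved as a whole. Against Zfand3 the control log2 ratio had a mean of -0.60 ± 0.53 (SD, n = 5). The samples at 135 min averaged 1.58 ± 0.09 (SD, n = 3) and those of the last time point 1.48 ± 0.14 (SD, n = 4), which is 2.19 and 2.09 higher (exact permutation p 0.0179 and 0.00794, adjusted 0.0403 for both). Against Zfand1 it was 2.22 and 2.26 higher, with the same p-values. Against Zfand6 it was 2.33 and 2.47 higher (exact permutation p 0.0179 and 0.0238, adjusted 0.0403 and 0.0428). Against Zfand5 the difference was 1.68 at both times and passed after adjustment at 405 min only (exact permutation p 0.0357 and 0.0238, adjusted 0.0584 and 0.0428). In the single 405-min sample of set 1 the ratio to Zfand6 (0.19) and to Zfand5 (-1.47) lay below the set 2 control (0.33 and -1.03), so the groups overlapped there. Within library sets 1 and 2 the ratio to Zfand5 was 1.14 and 0.7 higher at 405 min than in control. The ratio to Zfand6 was 1.58 and 1.5 higher, that to Zfand3 1.99 and 1.72, and that to Zfand1 1.7 and 2.01. Each of these differences was smaller than the pooled one, and each has 1 sample on 1 side. The ratio to Zfand2b had a control SD of 2.09 and did not pass at any time (exact permutation p 0.375, 0.446 and 0.96).

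**Figure D3:**
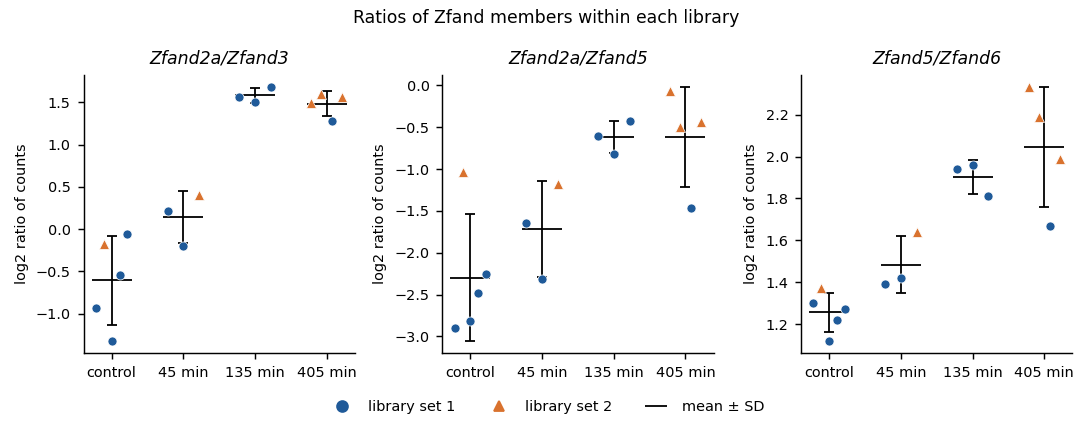
Log2 ratio of the counts of a pair of members within each library (y axis, a different range in each panel) by group (x axis); circles are library set 1, triangles library set 2, black bars the mean ± SD. The ratio of Zfand2a to Zfand3 and that of Zfand5 to Zfand6 at 135 and 405 min lie above all controls, while the ratio of Zfand2a to Zfand5 in the set 1 sample at 405 min falls below the set 2 control.

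Zfand2b, the constitutive relative of Zfand2a, had the lowest level in control and was not tested in the main model, which needs a count of at least 1 in each library. Control replicate 3, the shallowest library, held 0 counts of it, which allows up to 3 counts by counting error alone. The controls stood at 0.801, 4.81, 0, 1.77 and 2.34 CPM, and the 45-min samples at 4.65, 1.71 and 7.16 CPM. At 135 min it gave 1.89, 1.99 and 2.95 CPM, and at 405 min 7.74, 5.77, 5.02 and 5.72 CPM. All 4 samples at 405 min lay above all 5 controls, but the highest control, at 4.81 CPM, was the one from set 2, and the highest 45-min value also came from set 2. Zfand2b has the most GC-rich transcript of the family (59.5%).

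Without the filter, the log2 fold change of Zfand2b at 405 min was 1.56 (SE 0.61, edgeR adjusted p 0.118), where 8.8% of genes were called. It was 1.14 (SE 0.50, edgeR adjusted p 0.231) with library set as a covariate and 0.40 (SE 0.36, edgeR adjusted p 0.64) within set 2. A fit of the 405-min and 135-min groups alone gave 1.37 between them (SE 0.28, edgeR adjusted p 0.0129), but all 135-min samples and 3 of the 4 at 405 min lay in different sets. With library set as a covariate and no filter that difference was 0.57 (SE 0.61, edgeR adjusted p 0.853). Against control Zfand2b did not pass in any fit that included it, and its counts stayed between 0 and 140 per library.

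Zfand1 and Zfand3 did not pass any comparison. Zfand1 stood at 8.52, 4.31, 2.44, 7.07 and 4.02 CPM in the controls, at 6.05, 4.18 and 7.57 CPM at 45 min, at 4.15, 5.01 and 4.67 CPM at 135 min and at 3.52, 4.58, 5.80 and 4.73 CPM at 405 min. All later samples fell inside the control range, and the log2 fold change of Zfand1 at 405 min was -0.19 (SE 0.33, edgeR adjusted p 0.664), and -0.15 (SE 0.37) with library set. Zfand3 stood at 51.3, 51.4, 86.1, 52.5 and 44.7 CPM in the controls, 48.4, 45.0 and 44.1 CPM at 45 min, 56.2, 53.0 and 53.7 CPM at 135 min, and 64.8, 61.6, 54.3 and 58.7 CPM at 405 min. The high control is the shallowest library. The log2 fold change of Zfand3 at 405 min was 0.07 (SE 0.17, edgeR adjusted p 0.766), and 0.09 (SE 0.19) with library set. The first value lay between 0.00 and 0.23 when any 1 sample was left out.

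In all, 1 of the 5 members tested was called at 135 min, where 1.46% of the 10276 genes tested were called in either direction, and 1 of 5 at 405 min, where 23.4% were. Both calls were increases of Zfand2a, and 0.564% and 9.99% of all genes were called as increases. With library set in the model, 1 of 5 was called at 135 min against 7.93% of all genes, and 2 of 5 at 405 min against 13.0%, the second being Zfand5. A test of the 3 times together called Zfand2a (edgeR adjusted p 9.29e-06, with 9.69% of genes called) and, with library set, also Zfand5 (edgeR adjusted p 0.00127, with 13.1% called). Between 135 and 405 min 0 of 5 members were called in either model, against 5.06% of all genes with group alone and 3.68% with library set. With library set, Zfand5 and Zfand6 were 0.64 and 0.74 higher on the log2 scale at 405 than at 135 min, just short of the threshold (edgeR adjusted p 0.06 and 0.0574), and both passed it without control replicate 3, replicate 3 of the 45-min samples or replicate 1 of the 405-min samples. The measurements come from whole cultures, where a change in the share of cells that make an mRNA and a change in its amount per cell cannot be told apart.

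Levels were compared between members in RPKM, reads scaled to transcript length and sequencing depth, as the authors deposited it. In control, the order of medians was Zfand5 (32.6 RPKM), Zfand6 (22.5), Zfand3 (9.21), Zfand2a (5.33), Zfand1 (1.46) and Zfand2b (0.677), and the ranges of Zfand5 and Zfand6 and those of Zfand1 and Zfand2b overlapped. Within every control library Zfand5 nevertheless stood above Zfand6. At 135 min Zfand2a, at 27.4 RPKM, stood second behind Zfand5 at 45.5 and ahead of Zfand6 at 20.3, with no overlap between neighbours. At 405 min its median (26.7 RPKM) lay between those of Zfand5 (45.6) and Zfand6 (18.3), but its range over the libraries overlapped both. Within every 405-min library Zfand2a stood below Zfand5. It stood above Zfand6 in each set 2 sample and below it in the set 1 sample (21.1 against 34.5). Of the summed RPKM of the family, Zfand2a made up 8.49% ± 4.06 (SD, n = 5) before and 12.3% ± 3.67 (SD, n = 3) 45 min after S1 removal. Its share was 25.4% ± 2.06 (SD, n = 3) among the 135-min samples and 25.7% ± 7.01 (SD, n = 4) among those from 405 min. For Zfand5 the control share was 42.6% ± 4.77 (SD, n = 5) and the share at the last time point 41.9% ± 4.59 (SD, n = 4). Zfand6 held 30.7% ± 4.49 (SD, n = 5) and 17.9% ± 5.62 (SD, n = 4) of the sum. These shares also followed library set. The set 2 control had the highest Zfand2a share of the controls (15.4%) and the lowest Zfand6 share (22.8%). At 405 min the set 1 sample had the lowest Zfand2a share (15.8%) and the highest Zfand6 share (25.8%).

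**Figure D4:**
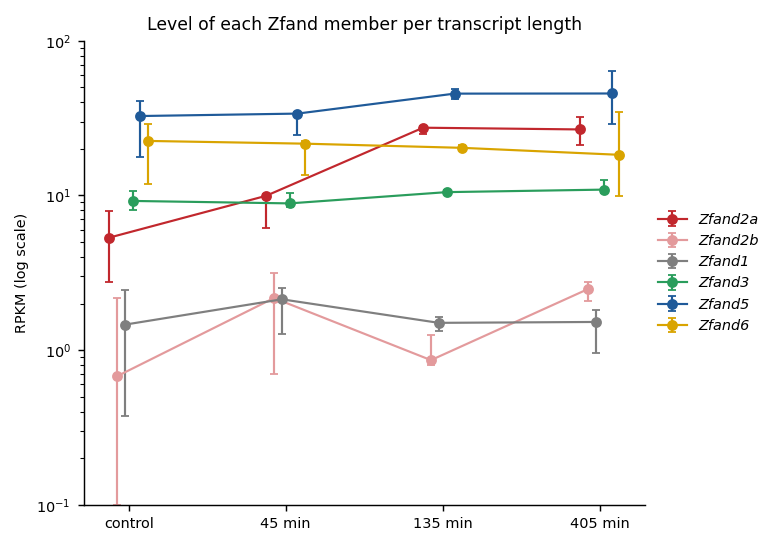
Median RPKM (y axis, log scale) of each member by group (x axis), with bars from the lowest to the highest sample; the lower bar of Zfand2b in control, which reaches 0, is cut at the bottom of the axis. The line of Zfand2a passes those of Zfand3 and Zfand6 between control and 135 min, from 5.33 to 27.4 RPKM.

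Genes whose levels followed each member most closely over the 15 samples are given as a description, since points share their library, depth and library set. For Zfand2a these were Gclc (Pearson r of log2 CPM 0.962), which encodes the catalytic subunit of the first enzyme of glutathione synthesis, Gtse1 (0.952), a regulator of p53 in the cell cycle, Mreg (0.947), Hsph1 (0.933), the HSP110 chaperone, and Phf16 (0.923). Their log2 fold changes at 135 min were 1.03, 1.76, 1.34, 1.29 and 1.09, all smaller than that of Zfand2a. The genes closest to Zfand5 were Gm14410 (0.967), Psmc6 (0.952), which encodes an ATPase subunit of the proteasome, and Hsp90aa1 (0.952), the inducible HSP90. Zfand6 was followed by Lztfl1 (0.984), B230118H07Rik (0.978) and Zeb1 (0.97), Zfand3 by Lrp11 (0.933), Nfatc2ip (0.918) and Nup133 (0.905), and Zfand1 by Trnp1 (0.821), 5730494N06Rik (0.748) and Acn9 (0.739). Within the family the closest pair was Zfand5 and Zfand6 (0.692), while Zfand2a had r of 0.457 with Zfand5 and -0.28 with Zfand6.

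Gene lists for the heat shock response and for the partners of AN1 proteins give the setting in which Zfand2a rose. They are read beside the 0.564% and 9.99% of all genes tested that were called as increases at 135 and 405 min and the 13.4% called as decreases at 405 min. With library set 6.17% were called as increases and 6.87% as decreases at 405 min. Of 20 tested targets of HSF1, the heat shock transcription factor, 5 were higher and 0 lower at 135 min, and 9 were higher and 0 lower at 405 min, with medians of 0.38 and 0.60 on the log2 scale against -0.06 and 0.00 over all genes. At 135 min the largest increases were those of Hspa1b (1.96, SE 0.44), an inducible HSP70 that shares reads with its near-identical neighbour Hspa1a, Hsph1 (1.29, SE 0.16) and Dnajb1 (1.14, SE 0.25), an HSP40, with edgeR adjusted p-values of 0.039, 0.000399 and 0.0378. The log2 fold change of Zfand2a at that time (2.13) was thus of the size of the strongest of these. At 405 min the largest were those of Ahsa1 (1.52, SE 0.39), Bag3 (1.5, SE 0.18) and Hspb8 (1.39, SE 0.16), which encode an HSP90 activator, an HSP70 co-chaperone and its small heat shock partner. With library set these were 1.11, 1.22 and 1.23 and still called.

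Proteasome subunits were called at 405 min. Of 38 tested, 0 were called at 135 min and 18 were higher at 405 min (median 0.50), led by Psmd3 (2.04, SE 0.40), Psmb3 (1.96, SE 0.23) and Psmb6 (1.65, SE 0.26). With library set in the model these were 1.48, 1.75 and 1.39, and 7 subunits were higher at 135 min and 29 at 405 min, with 0 lower. In that model 7.93% of all genes tested were called at 135 min in either direction. Among 13 proteasome activators and assembly factors 3 were higher and 2 lower at 405 min, the lower ones near the 13.4% of all genes. The activator Psme4 (1.01, SE 0.14), the deubiquitinase Usp14 (0.76, SE 0.11) and the assembly factor Pomp (0.38, SE 0.13) were higher and remained so with library set (1.13, 0.80 and 0.52), and Uchl5 (-1.49, SE 0.51) and Psmg4 (-0.88, SE 0.29) were lower. The calls on Uchl5 and Psmg4 were lost with library set (edgeR adjusted p 0.217 and 0.154).

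Of p97 and its cofactors, 24 of which were tested, 0 were called at 135 min, and at 405 min 10 were higher and 1 lower (median 0.51). Vcp, the gene of p97 itself, was 1.37 higher on the log2 scale (SE 0.20, edgeR adjusted p 0.000434), the adaptor gene Nploc4 1.48 (SE 0.18) and Ube4b, which encodes a ubiquitin chain elongation factor, 1.5 (SE 0.34). With library set they were 1.10, 1.19 and 1.13 higher. Ubxn2b was lower by the group-only model (-1.26, SE 0.36) and not called with library set (edgeR adjusted p 0.13). Among 16 stress granule genes, the setting in which ZFAND1 acts, 1 was higher and 2 lower at 405 min (median -0.15), where 13.4% of all genes were lower, so the count of lower genes is near the background. G3bp1 (-0.66, SE 0.15) and G3bp2 (-0.54, SE 0.14), which encode granule scaffolds, were lower under both models (-0.45 and -0.38 with library set), and the higher one was Hdac6 (1.16, SE 0.34), not called with library set (edgeR adjusted p 0.095). Of 4 other genes with A20 or AN1 fingers that were tested, Ighmbp2 (1.53, SE 0.41) and Rabgef1 (1.10, SE 0.28) were higher at 405 min, and Rabgef1 alone passed with library set (edgeR adjusted p 0.0384, against 0.0563 for Ighmbp2).

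**Figure D5:**
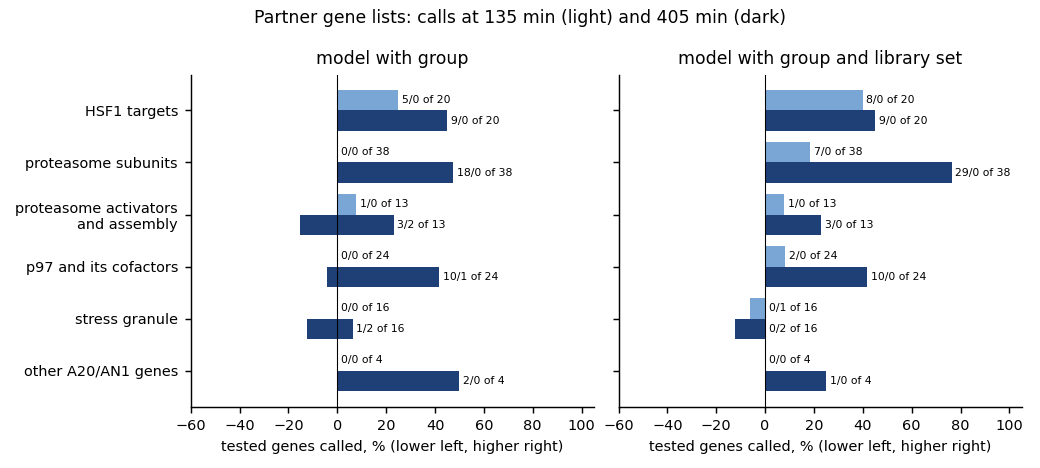
Share of the tested genes of each list (x axis, percent, higher genes to the right and lower genes to the left of 0) that were called at 135 min (light) and 405 min (dark), in the model with group (left) and with group and library set (right); the text at each bar gives the numbers higher and lower of those tested. Calls on the HSF1 targets were already made at 135 min in both models. In the model with group, proteasome subunits went from 0 calls at 135 min to 18 at 405 min. With library set they went from 7 to 29.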

How the data were processed

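mRNA-seq tables of 15 samples were used, with groups and replicate numbers from the sample titles. The study's methods name a modified Illumina protocol and also a NuGEN kit for the poly(A) libraries, and do not say which samples had which. Whether the library sets match these preparations was not tested. Per the same methods, reads were aligned to mm9 and quantified against RefSeq on DNAnexus. The aligner is not given in the sources used here. The read count column that the authors deposited holds expected counts (8.7% to 15.6% of genes per sample were not whole), which were rounded for the tests. The authors also deposited RPKM, used here for levels between genes, and a Z score and a ratio of RPKM to its root mean square, neither of which was used.

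The 10276 of 20207 genes with a count of 1 or more throughout were tested in 1 model with a term for group over all 15 samples, with TMM factors and the edgeR 4.0.16 quasi-likelihood test in R 4.3.3. The Benjamini-Hochberg method was applied over all genes tested, with a threshold of 0.05. SEs were obtained by dividing log2 fold changes by the square root of F. CPM divide rounded counts by the normalized library size. Ratios were taken after adding 0.5 counts and compared by two-sided exact permutation tests over every split of the samples. Their p-values were adjusted by the Benjamini-Hochberg method in scipy 1.17.1.

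Library sets were split at the largest gap in the slope of log2 CPM on transcript GC content (GENCODE vM1, NCBIM37, the same assembly as mm9, 95.0% of genes tested). The slopes were -1.346 to -0.642 per 10 percentage points in set 1 and -0.359 to 0.048 in set 2. The next widest gap was only slightly narrower and lay inside set 1, between control replicates 3 (-1.346) and 4 (-1.089). Adding the set lowered the common dispersion from 0.102 to 0.049. The 22 replicate pairs differed by 10 to 237.2 in chi-square per degree of freedom, beyond sampling noise.

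The text names all 6 members, up to 3 rising and 3 falling genes per list with the largest change at 405 min past the threshold (at 135 min also for HSF1 targets), and the 3 genes (5 for Zfand2a) nearest to each member. The members and lists were chosen with earlier results of these data known. Alternatives included DESeq2 1.42.0, limma 3.58.1 on log2(RPKM + 0.1), other filters and scalings, library set and single samples left out. Gene coordinates are those of the deposited tables, and 5 of the 6 members matched the promoter table.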

Additional observations from a re-analysis of the deposited data

Results flagged for a closer look

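Groups of 4 or more samples were checked for a sample far from the rest, which for the 6 members meant 12 groups, and chance alone flags about 1 in 20 such groups. Zfand3 stood apart in control replicate 3, at 86.1 CPM against 44.7 to 52.5 CPM in the other 4 controls (gap over range 0.813). This is the shallowest library, and the log2 fold change of Zfand3 at 405 min was at most 0.23 with any 1 sample left out. Zfand5 stood apart in control replicate 2, at 93.2 CPM against 201 to 244 CPM (gap over range 0.712, just past the critical 0.71). Within set 2, where this is the only control, the Zfand5 log2 fold change at 405 min was 1.29, and within set 1, which does not hold it, 0.77.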

How the results depend on the processing

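Zfand2a was called at 135 and 405 min under every alternative that gave a p-value, and Zfand1, Zfand3 and Zfand6 were called at a single time against control under none. The number of members higher at 405 min was 1 in the main model and 2 with library set as a covariate, with or without the filter, within set 1, within set 2 and with total counts in place of TMM, Zfand5 being the second each time. With total counts its log2 fold change was 0.61 (edgeR adjusted p 0.0481) while the median of all genes moved to 0.11, which leaves 0.50. The number changed at any time was 1, and 2 with library set, with or without the filter, and within set 1. At 405 against 135 min 0 members were higher, and 1 (Zfand2b) in a fit of those groups alone.

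Leaving out 1 sample at a time, with and without library set, gave Zfand2a log2 fold changes of 0.23 to 0.62 at 45 min, 2.03 to 2.32 at 135 min, 1.90 to 2.28 at 405 min and -0.30 to 0.15 for 405 against 135 min. Over the same fits 1 to 3 members were changed at any time, the third being Zfand6 in the fits with library set without control replicate 3, 45-min replicate 3 or 405-min replicate 1 (edgeR adjusted p 0.0168, 0.0386 and 0.021, against 0.0631 with all samples), 1 to 2 were higher at 405 min and 0 to 2 at 405 against 135 min. Of the 5 Zfand2a ratios, counted by unadjusted p-values, 0 to 1 passed at 45 min, 2 to 4 at 135 min and 2 to 4 at 405 min, against 0, 4 and 4 with all samples. The count at 405 min was 0 within set 1 and 0 within set 2, where too few samples remain for any to pass.

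Samples with the same replicate number were on average no more alike than others. Deviations from group means correlated at -0.11 on average over 19 pairs with the same number and 0.028 over 64 pairs with different numbers. Library set was not removed from these deviations, and whether same-numbered samples shared a culture or batch was not tested. With a replicate block, Zfand2a had log2 fold changes of 2.20 and 2.24 at 135 and 405 min (edgeR adjusted p 0.00469 and 0.00136). None of the 5 ratios could pass with same-numbered samples paired. So few pairs allow no exact sign-flip p below 0.25 at 135 min and 0.125 at 405 min. The block left 1 and 6 of 20 HSF1 targets higher at 135 and 405 min in place of 5 and 9. At 405 min it left 6 of 24 genes of p97 and its cofactors in place of 10. It also left 15 of 38 proteasome subunits in place of 18. The share of all genes called with the block is not given here, so these counts lack a background. Medians of the HSF1 targets with the block were 0.429 and 0.595, against -0.04 and 0.024 over all genes. The set-covariate fits without a filter or with samples left out were chosen after seeing the data. Low counts limit Zfand1, Zfand2b and every result from control replicate 3.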
